A study of Rattus norvegicus with 9 samples.

Results

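The genes described here mark resident immune cells of the gut wall: macrophages (Csf1r, Cd68, Cd163, C1qa and C1qb), dendritic cells (Flt3 and Itgax) and mast cells (Kit, Cpa3 and Fcer1a). They were taken by symbol from both deposited tables of gene levels, from a fixed list of 10 genes. Of these, 9 had a row in both tables, among 17120 genes, and all 9 reached the level needed for testing in both. Itgax was not analysed here. All rats were of the strain Otsuka Long-Evans Tokushima fatty, which lacks functional cholecystokinin receptor A and grows obese and diabetic. RNA came from the ileum, where the small bowel ends, and sampling was 1 month after the operation. The operation was Roux-en-Y (RYGB), a bypass that sends food past most of the stomach and the duodenum, or a sham procedure. The 3 groups, each of 3 replicates, are bypassed ileum labelled FDG decreased, bypassed ileum labelled FDG increased, and ileum of the sham procedure. FDG is read as fluorodeoxyglucose, a glucose analogue for imaging, although the labels do not write it out, and no age is given. Whether replicates are separate animals is not given either, and p-values then cover the spread among these libraries alone, which may be technical.

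Gut macrophages arise mainly from blood monocytes and need signals through the receptor Csf1r, whose ligands are Csf1 and Il34. They take up dead cells and microbes, and many make C1q, the recognition part of the classical complement pathway. Dendritic cells grow under Flt3 signals and carry antigen to lymph nodes. Mast cells depend on the receptor Kit and its ligand Kitlg, store proteases such as Cpa3 in granules, and release them when IgE bound to the receptor that contains Fcer1a is crosslinked. Kit is also made by interstitial cells of Cajal, the pacemaker cells of gut muscle, so it does not mark mast cells alone in whole gut wall.

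Transcription of many macrophage genes involves the ETS family factor PU.1 (gene Spi1), and mast cell genes involve GATA factors. The 250 bases before the start of each gene were read from RefSeq (GRCr8), matched by symbol for all 10 genes, and searched on both strands for GAGGAA, an ETS core, and AGATAA, the motif read by GATA factors. Capitals mark the matches. The sequences below are those of the macrophage genes C1qb and Cd68, ranked 4th and 7th nearest to Csf1r by profile across libraries. Those of Cpa3 and Fcer1a, the mast cell pair with the most alike profiles, follow. All 4 hold a match, while C1qa, ranked 12th nearest to Csf1r, holds none.
C1qb (GRCr8 chr5:154407828-154408077, minus strand): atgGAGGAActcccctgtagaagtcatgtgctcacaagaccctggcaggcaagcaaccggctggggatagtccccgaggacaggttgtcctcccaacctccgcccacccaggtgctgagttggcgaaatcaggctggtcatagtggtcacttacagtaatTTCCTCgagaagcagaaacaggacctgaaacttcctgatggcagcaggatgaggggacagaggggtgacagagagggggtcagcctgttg
Cd68 (GRCr8 chr10:54882442-54882691, minus strand): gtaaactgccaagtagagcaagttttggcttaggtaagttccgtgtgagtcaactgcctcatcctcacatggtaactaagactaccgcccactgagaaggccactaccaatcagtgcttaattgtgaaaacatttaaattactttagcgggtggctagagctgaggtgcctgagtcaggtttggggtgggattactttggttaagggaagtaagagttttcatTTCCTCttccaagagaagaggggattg
Cpa3 (GRCr8 chr2:104673238-104673487, minus strand): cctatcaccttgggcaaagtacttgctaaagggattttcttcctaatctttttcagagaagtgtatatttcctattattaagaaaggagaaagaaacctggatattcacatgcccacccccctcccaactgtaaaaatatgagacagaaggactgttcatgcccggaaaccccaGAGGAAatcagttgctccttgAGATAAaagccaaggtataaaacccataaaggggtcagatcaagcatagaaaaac
Fcer1a (GRCr8 chr13:88224680-88224929, minus strand): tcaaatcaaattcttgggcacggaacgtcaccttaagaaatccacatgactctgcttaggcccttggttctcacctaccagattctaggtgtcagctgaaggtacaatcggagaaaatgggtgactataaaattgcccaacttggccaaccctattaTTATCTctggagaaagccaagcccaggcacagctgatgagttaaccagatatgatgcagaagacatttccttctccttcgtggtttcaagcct
GAGGAA or its complement TTCCTC was found for 4 of the 10 genes (Csf1r, C1qb, Cd68 and Cpa3) and in 23.3% of 33469 rat promoters of the same length. In C1qb the matches begin 247 and 90 bases before the start, in Cd68 27 and in Cpa3 76 bases before it. AGATAA or its complement TTATCT was found for 2 of the 10 genes, Cpa3 (55 bases before the start) and Fcer1a (93 bases before it), and in 10.3% of promoters. No matches of the 2 motifs overlapped. A match describes letters in this window and is not a measured binding site.

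Levels are in FPKM (fragments scaled by transcript length and library size), which allows genes to be compared per length. Summed FPKM per library was 465697 to 864511. In the sham table it was 611736 to 864511 in FDG-increased columns and 465697 to 569504 in sham libraries, without overlap. Fold values and main differences were not adjusted for this. Columns 2 and 3 of FDG-increased ileum in the sham table repeat replicates 1 and 2 of the RYGB table, times 1.023 and 1.020. That leaves 10 different libraries, of which 4 are FDG-increased where the labels name 3, and each table is analysed by itself. Sham replicate 1 went against its tissue label, with 22.6 FPKM of the ileal bile acid binding protein Fabp6 against 8375 and 11347 FPKM in sham replicates 2 and 3, and with 253 FPKM of Lct, the lactase of the upper intestine, against 8.60 and 0.317 FPKM. Slc10a2, the ileal bile acid transporter, stood there at 2.603 against 67.3 and 119.9 FPKM, and Gata4, a transcription factor of the jejunum, at 59.8 FPKM where the other sham libraries had 9.82 and 0.0853 FPKM. In the RYGB table the libraries numbered 3 in both groups stood apart with low immune markers. In bulk tissue, fewer cells of a type and less RNA per cell cannot be told apart.

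In the sham table, bypassed ileum labelled FDG increased is set against sham ileum. The operation and the FDG label change together there and cannot be told apart. Macrophage genes lay higher in the FDG-increased libraries of that table: Csf1r by 2.55-fold in mean FPKM, Cd68 by 2.36-fold, C1qb by 2.10-fold and C1qa by 1.98-fold, while the macrophage scavenger receptor Cd163 stood at 0.818-fold and Kit at 1.09-fold. None of the 9 genes passed limma's test after Benjamini-Hochberg adjustment (0 of 9, at an adjusted p under 0.05), where 0.037% of 10801 genes did. By limma, 5 of 9 had an unadjusted p under 0.05, all 5 higher and none lower, where 7.84% of all genes did, 6.15% higher and 1.69% lower. That count was 2 of 9 without FDG-increased column 1, without sham replicate 2 or in lane 7 alone, each time Csf1r and Cd68, and 3 of 9 with quantile normalization or a common median. In 4 of 9, each FDG-increased column exceeded each sham library, which held for 10.7% of all genes, and in 0 of 9 the reverse held, beside 4.44%. With 3 against 3 an exact two-sided permutation test of a single gene cannot go below p = 0.1. The median difference of the 9 was 1.07 on the log2(FPKM + 1) scale, beside 0.13 over all genes tested.

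Csf1r, the growth factor receptor of macrophages, stood at 28.5, 23.4 and 32.1 FPKM in FDG-increased columns 1, 2 and 3, where sham replicates 1, 2 and 3 had 13.1, 7.34 and 12.5 FPKM. The groups did not overlap, and sham replicate 2 was the lowest library. The difference was 1.30 on the log2 scale (SE 0.292, 95% interval 0.64 to 1.96), with an adjusted p of 0.305 by limma with Benjamini-Hochberg adjustment. Cd68, a lysosomal membrane protein of phagocytes, stood at 12.5, 13.8 and 19.2 FPKM against 5.98, 5.63 and 7.67 FPKM in the same order. Its groups did not overlap either, and the sham libraries lay close together. Its difference was 1.11 (SE 0.258, 95% interval 0.52 to 1.69), with an adjusted p of 0.335 by limma with Benjamini-Hochberg adjustment.

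C1qa and C1qb, chains of the C1q complex, were the members with the highest level per length in every group. C1qa stood at 165.3, 105.1 and 113.7 FPKM in FDG-increased ileum and at 82.2, 30.8 and 81.3 FPKM in sham ileum. C1qb stood at 107.6, 67.1 and 86.1 FPKM against 56.9, 23.0 and 44.5 FPKM. For both genes column 1 was highest and sham replicate 2 lowest, and the groups did not overlap. The log2 differences were 1.07 (SE 0.436) for C1qa and 1.12 (SE 0.393) for C1qb, with adjusted p of 0.623 and 0.562 by limma with Benjamini-Hochberg adjustment. C1qc, the remaining chain of the complex, differed by 1.08. The ratio of C1qa to C1qb within a library kept to 1.15 to 1.83 over the columns of both tables, although C1qa itself ran from 10.2 to 165.3 FPKM. The proteases C1r and C1s, which C1q activates and which many other cells make, differed by 0.22 and -0.13 on the log2 scale.

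Cd163, the haemoglobin scavenger receptor of resident macrophages, stood at 5.37, 4.41 and 8.79 FPKM in FDG-increased columns 1 to 3, where the sham libraries had 9.66, 6.60 and 6.43 FPKM. The groups overlapped, with FDG-increased column 3 above 2 of the sham libraries. The difference was -0.28 (SE 0.294, 95% interval -0.94 to 0.39), with an adjusted p of 0.855 by limma with Benjamini-Hochberg adjustment. In sham ileum Cd163 had a higher mean than Cd68 (7.56 ± 1.81 against 6.43 ± 1.09 FPKM, SD, n = 3), within their spread. In FDG-increased ileum the order was the opposite (6.19 ± 2.30 against 15.2 ± 3.57 FPKM, SD, n = 3), and every library there had more Cd68 than Cd163.

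Set against Csf1r in the same library, which removes any scaling of the library, Cd163 amounted to 0.189, 0.188 and 0.273 of Csf1r in the FDG-increased columns and 0.735, 0.900 and 0.514 of it in the sham libraries. In FDG-decreased ileum the ratio was 0.170, 0.325 and 0.412. These 6 RYGB columns lay below all sham libraries, and the exception was FDG-increased replicate 3 of the RYGB table, at 0.720, inside the sham range. That library had the lowest Csf1r, at 2.04 FPKM. Cd163 relative to Cd68 was 0.839 to 1.62 in sham libraries and 0.320 to 0.457 in the FDG-increased columns beside them. In the RYGB table it was 0.218 to 0.629 in FDG-decreased and 0.320 to 0.670 in FDG-increased ileum. Both ratios were chosen after the values were seen and were not tested. Cd163 had the lowest fold of the members against sham, so lower ratios in those FDG-increased columns follow in part from the choice. Mrc1, the mannose receptor of macrophages, also had a value below 0 in FDG-increased against sham ileum (-0.22). It was named after its values were seen. Its groups overlapped, at 4.11, 2.90 and 6.84 FPKM in the FDG-increased columns against 5.90, 7.77 and 3.06 FPKM in the sham libraries. Of 19 tested macrophage and monocyte genes, 16 were higher in FDG-increased ileum and 3 lower.

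**Figure D1:**
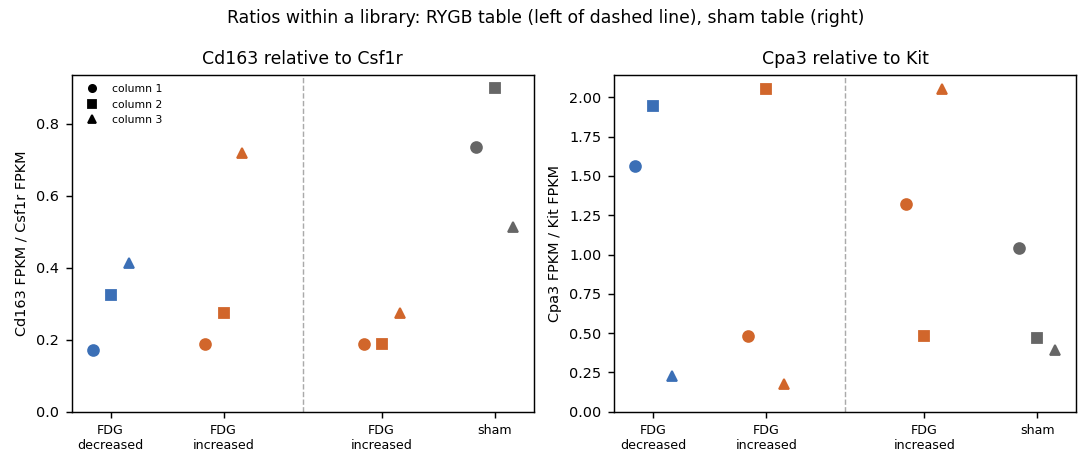
Ratio of FPKM within each library, Cd163 to Csf1r on the left and Cpa3 to Kit on the right, by group (x axis), with the RYGB table left of the dashed line and the sham table right of it. Each point is a library column, and the FDG-increased columns 2 and 3 of the sham table repeat replicates 1 and 2 of the RYGB table. Cd163 to Csf1r was 0.514 to 0.900 in sham ileum and 0.188 to 0.273 in the FDG-increased columns beside it.

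Flt3, the growth factor receptor of dendritic cell precursors, stood at 3.21, 2.95 and 4.80 FPKM in FDG-increased ileum against 1.42, 1.13 and 3.05 FPKM in sham ileum. Sham replicate 3 lay above FDG-increased column 2, so the groups overlapped. The difference was 0.74 (SE 0.302, 95% interval 0.05 to 1.42), with an adjusted p of 0.626 by limma with Benjamini-Hochberg adjustment. Other genes of dendritic cells differed less: Xcr1, the chemokine receptor of cross-presenting dendritic cells, by 0.23, Clec9a, their receptor for dead cells, by 0.06, and Batf3, their transcription factor, by 0.01. Of the 9 dendritic genes tested 7 were higher and 2 lower, with a median of 0.06, under the 0.13 of all genes. By limma 0 passed the adjusted threshold while 1, Flt3, had an unadjusted p under 0.05, beside 7.84% of all genes.

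Mast cell genes differed among themselves. Kit stood at 9.34, 8.53 and 14.2 FPKM in FDG-increased ileum and at 9.67, 11.0 and 8.85 FPKM in sham ileum, with overlapping groups. Its difference was 0.09 (SE 0.262, 95% interval -0.51 to 0.68), with an adjusted p of 0.964 by limma with Benjamini-Hochberg adjustment, below the median shift of all genes, and it was -0.04 with libraries shifted to the same median and -0.00194 with quantile normalization. Cpa3, the carboxypeptidase of mast cell granules, stood at 12.3, 4.09 and 29.2 FPKM against 10.1, 5.12 and 3.50 FPKM. Fcer1a, the IgE-binding chain of the mast cell receptor, stood at 3.61, 0.966 and 8.26 FPKM against 1.96, 0.688 and 0.788 FPKM. Both were highest in FDG-increased column 3 and both overlapped between groups, since column 2 was among the low libraries. The differences were 0.92 (SE 0.597) for Cpa3 and 1.08 (SE 0.507) for Fcer1a, with adjusted p of 0.755 and 0.663 by limma with Benjamini-Hochberg adjustment. Mcpt2, the protease of mucosal mast cells, ran with them, at 248.6, 107.9 and 350.2 FPKM against 200.3, 56.9 and 55.7 FPKM, a difference of 1.28 (SE 0.599). Of 9 tested mast cell, basophil and eosinophil genes 9 were higher, with a median of 0.92. By limma 0 passed the adjusted threshold and 1, Hpgds, had an unadjusted p under 0.05, beside 7.84% of all genes. Prg2, of eosinophil granules, was listed at 0 in all 6 columns of the sham table, and Epx, their peroxidase, was below the level needed for testing.

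Cpa3 relative to Kit was 1.32, 0.480 and 2.05 in the FDG-increased columns and 1.04, 0.467 and 0.395 in the sham libraries, so the groups overlapped. Ano1, the channel that defines interstitial cells of Cajal, stood at 6.16, 5.63 and 7.64 FPKM against 6.25, 6.41 and 6.14 FPKM. The summed level of Kit, Ano1 and Etv1 was 16.1 to 28.8 FPKM in FDG-increased and 17.8 to 22.5 FPKM in sham ileum, and its part in the level of Kit was not tested.

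**Figure D2:**
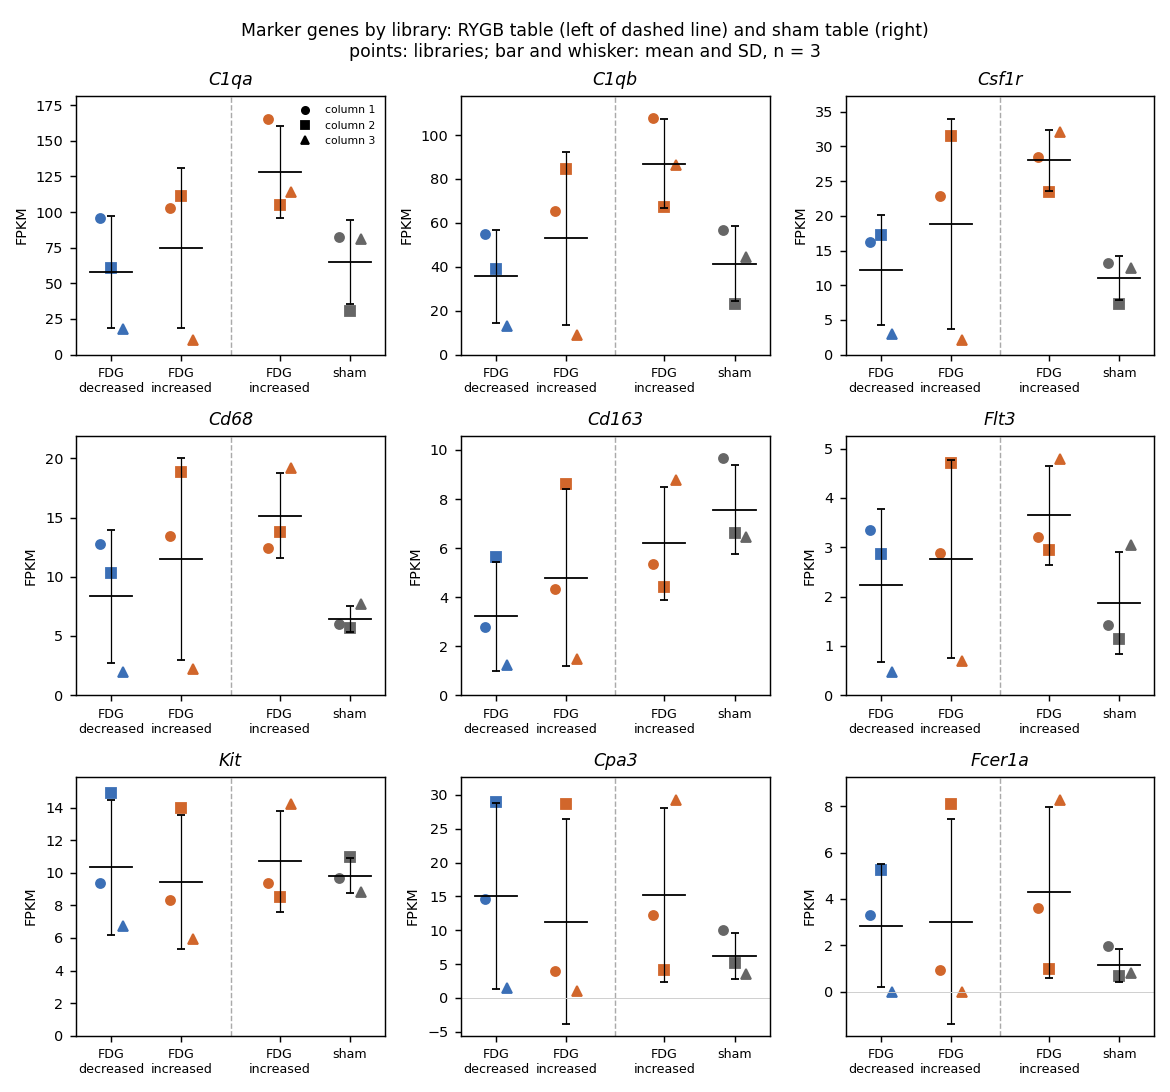
FPKM (y axis, linear) of the 9 genes in every library column by group (x axis), with the RYGB table left of the dashed line and the sham table right of it. Points are columns, the bar is the mean and the whisker the SD (n = 3), which can reach below 0. Csf1r, Cd68, C1qa and C1qb were separate between FDG-increased and sham ileum, and all 9 genes were low in the RYGB columns numbered 3.

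A wider list of macrophage and monocyte genes showed how far the pattern went. Of 23 genes 20 had a row and 19 were tested, of which 16 were higher in FDG-increased ileum and 3 lower, with a median of 0.97, where 6987 of all 10801 genes were higher. By limma 0 passed the adjusted threshold and 12 of 19 had an unadjusted p under 0.05, beside 7.84% of all genes. In 12 of 19 the groups lay apart with FDG-increased ileum higher, beside 10.7% of all genes. The list holds 5 of the 9 genes above, and Csf1r, Cd68, C1qa and C1qb are in both counts of 12. These counts are thus not separate from those of the 9 genes. Aif1, a calcium-binding protein of macrophages, stood at 41.5, 26.9 and 50.0 FPKM against 18.2, 8.22 and 16.6 FPKM, a difference of 1.43 (SE 0.368). Tyrobp, the adaptor of activating myeloid receptors, stood at 42.3, 25.5 and 39.7 FPKM against 16.4, 9.13 and 14.2 FPKM, a difference of 1.38 (SE 0.318). Hpgds, a prostaglandin synthase of mast cells and some macrophages, is not of this list but of the mast cell list, and differed by 1.18 (SE 0.410). The adjusted p of these 3 by limma with Benjamini-Hochberg adjustment was 0.439, 0.332 and 0.562.

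Of 5 tested growth factors and attractants of these cells 3 were higher and 2 lower, with a median of 0.05. By limma 0 passed the adjusted threshold and 1 had an unadjusted p under 0.05, beside 7.84% of all genes. That gene was Ccl2, the attractant of blood monocytes, named after its values were seen, at 43.6, 31.6 and 113.3 FPKM in FDG-increased and 4.27, 10.4 and 10.7 FPKM in sham ileum. The groups did not overlap, and the difference was 2.63 (SE 0.5001, 95% interval 1.496 to 3.76), with an adjusted p of 0.185 by limma with Benjamini-Hochberg adjustment. The ligands of Csf1r and Kit differed by less. Csf1 stood at 5.59, 5.79 and 5.69 FPKM in FDG-increased and at 4.24, 8.58 and 7.63 FPKM in sham ileum, a difference of -0.18. Il34, the other ligand of Csf1r, differed by 0.05. Kitlg stood at 26.0, 32.7 and 144.6 FPKM against 26.6, 90.5 and 43.6 FPKM, a difference of 0.08. The adjusted p of these 3 ligands was above the threshold by limma with Benjamini-Hochberg adjustment (0.913, 0.979 and 0.988), and the Flt3 ligand was not analysed here.

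Most pan-leukocyte, T cell and NK cell genes moved with the macrophage genes in this table. All 4 pan-leukocyte genes were higher (median 0.76), with a summed level of 98.2 to 192.9 FPKM in FDG-increased and 59.5 to 86.2 FPKM in sham ileum. Of 10 T and NK cell genes 9 were higher (median 0.95), with sums of 125.6 to 223 against 47.9 to 90.5 FPKM. By limma 0 genes of these 2 lists passed the adjusted threshold, and 1 of 4 and 8 of 10 had an unadjusted p under 0.05, beside 7.84% of all genes. The groups lay apart with FDG-increased ileum higher in 2 of 4 and 6 of 10, beside 10.7% of all genes. Genes of B and plasma cells (median 0.27), lymphoid follicles (0.19) and neutrophils (0.39) had lower medians, with 3, 3 and 2 tested. By limma 0 of them passed the adjusted threshold, and 1, 1 and 0 had an unadjusted p under 0.05, beside 7.84% of all genes. The groups lay apart with FDG-increased ileum higher in 1, 0 and 0 of them, beside 10.7%. The summed levels of these 3 lists overlapped between groups. Epithelial genes were higher for 6 of 6 (median 0.46), smooth muscle genes for 3 of 7 (median -0.01), and the 4 adipocyte genes were lower in FDG-increased ileum (median -1.37, sums of 8.74 to 22.0 against 22.6 to 128.2 FPKM). The sum of 128.2 FPKM was that of sham replicate 2. That library also had the lowest epithelial (3448 FPKM) and smooth muscle (797 FPKM) sums of the table. Csf1r relative to Ptprc, the common leukocyte antigen, was 1.77, 1.20 and 0.582 in FDG-increased columns and 1.22, 0.507 and 0.590 in sham libraries, with overlapping groups. The part of these cells in the macrophage values was not tested.

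Without sham replicate 1, the library low in Fabp6, the differences were 1.44 for Csf1r, 1.07 for Cd68, 1.30 for C1qa, 1.39 for C1qb and -0.11 for Cd163. Without sham replicate 2, the library of that table lowest in Csf1r and C1q, they were 1.06 for Csf1r, 1.03 for Cd68, 0.61 for C1qa and 0.75 for C1qb, and the unadjusted p by limma was then 0.153 for C1qa and 0.085 for C1qb. All sham libraries came from lane 7. Among FDG-increased columns only column 2 is known to be of that lane, and with lane 7 alone (1 library against 3, taken to vary alike) Csf1r differed by 1.07, Cd68 by 1.00, C1qa by 0.82, C1qb by 0.77, Flt3 by 0.52 and Cd163 by -0.64, while Cpa3 (-0.40), Fcer1a (-0.08) and Kit (-0.18) changed sign. Without FDG-increased column 3 the difference was 0.29 for Cpa3, 0.54 for Fcer1a and -0.12 for Kit. Without FDG-increased column 2 it was 1.58 for Cpa3 and 1.66 for Fcer1a, with unadjusted p of 0.00989 and 0.00258 by limma and adjusted p of 0.872 and 0.681 after Benjamini-Hochberg adjustment.

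**Figure D3:**
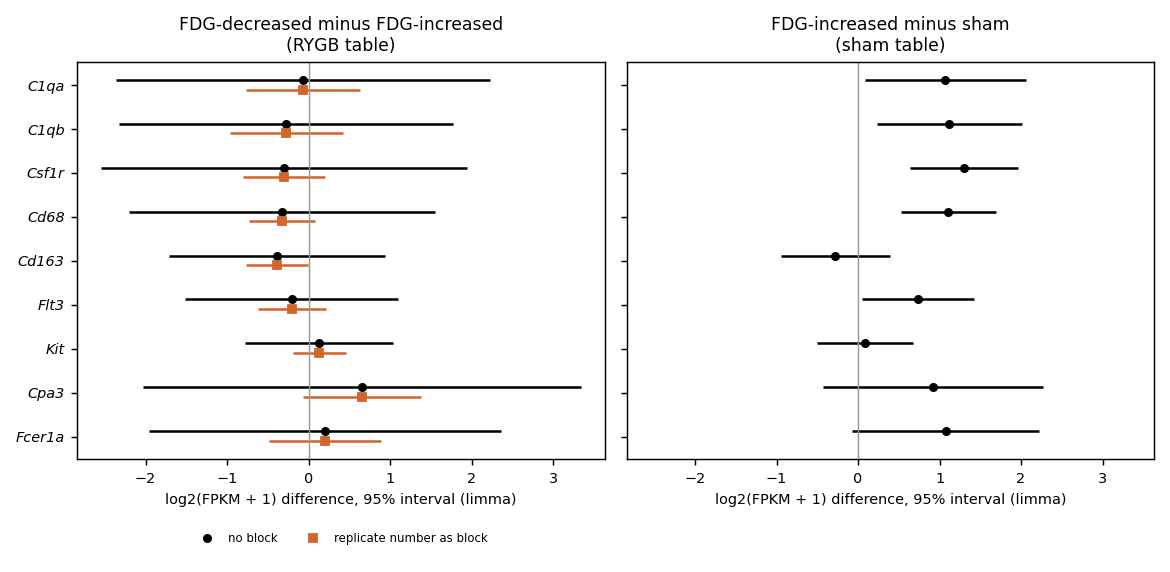
Difference in log2(FPKM + 1) with its 95% interval from limma for each gene, FDG-decreased minus FDG-increased on the left and FDG-increased minus sham on the right. Orange squares on the left show the same difference with the replicate number as a block. On the right the intervals of Csf1r (0.64 to 1.96) and Cd68 (0.52 to 1.69) were farthest from 0, and that of Cd163 (-0.94 to 0.39) included it.

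FDG-decreased against FDG-increased RYGB ileum asks whether gut wall with less and more FDG differs after the same operation. None of the 9 genes passed (limma with Benjamini-Hochberg adjustment, 0 of 9, each adjusted p 1.00), where 0% of 10739 genes did, and 0 of 9 had an unadjusted p under 0.05, where 1.02% of all genes did. Of the 9, 6 were lower in FDG-decreased ileum (Csf1r, Cd68, Cd163, C1qa, C1qb and Flt3) and 3 higher (Kit, Cpa3 and Fcer1a), with a median difference of -0.20 beside 0.02 over all genes. In 9 of 9 both libraries numbered 3 lay below the other 4 libraries, as did 30.6% of all genes tested. Genes of the upper intestine differed between the groups. The summed level of that list of 3 was 12.3 to 40.7 FPKM in FDG-decreased and 0.720 to 2.88 FPKM in FDG-increased ileum, without overlap. In 3 of 3 genes the groups lay apart with FDG-decreased ileum higher, beside 1.95% of all genes. Of the 3 genes 0 passed in the main fit, beside 0% of all genes, and 2 with the replicate block, beside 1.14%. The part of this list in the marker values was not tested.

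Csf1r stood at 16.3, 17.3 and 3.03 FPKM in FDG-decreased replicates 1, 2 and 3 and at 22.9, 31.5 and 2.04 FPKM in FDG-increased replicates 1, 2 and 3. Cd68 stood at 12.7, 10.3 and 1.98 FPKM against 13.5, 18.8 and 2.19 FPKM. The groups overlapped for both genes, and the third libraries of both groups were the lowest. The differences, FDG-decreased minus FDG-increased, were -0.30 (SE 0.963, 95% interval -2.54 to 1.95) for Csf1r and -0.33 (SE 0.807, 95% interval -2.21 to 1.55) for Cd68. With the replicate number as a block the intervals were narrower, -0.80 to 0.21 for Csf1r and -0.73 to 0.08 for Cd68. The adjusted p were then 0.818 and 0.677 by limma with Benjamini-Hochberg adjustment. C1qa stood at 95.9, 60.4 and 17.9 FPKM against 102.8, 111.5 and 10.2 FPKM, and C1qb at 55.0, 38.8 and 13.1 FPKM against 65.6, 84.4 and 8.81 FPKM. Within pairs of the same number Csf1r, C1qa and C1qb were lower in FDG-decreased ileum in pairs 1 and 2 and higher in pair 3. Their pair 2 differences were -0.83, -0.87 and -1.10 on the log2 scale, and their pair 3 differences 0.41, 0.76 and 0.52. Pair 1 came from lane 7 and pair 2 from lane 4. Pair 3 was split, with the FDG-decreased library in lane 5 and the FDG-increased library in lane 4. The part of the lane was not tested.

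Cd163 stood at 2.77, 5.62 and 1.25 FPKM in FDG-decreased ileum and at 4.32, 8.61 and 1.47 FPKM in FDG-increased ileum. It was lower in FDG-decreased ileum in 3 of 3 pairs, by -0.49, -0.54 and -0.13 on the log2 scale, and so was Cd68 in 3 of 3 pairs. Over all genes tested, 12.7% were lower in all 3 pairs. With the replicate number as a block, the Cd163 difference of -0.39 had an SE of 0.171 in place of 0.569 and a 95% interval of -0.77 to -0.01. Its adjusted p was then 0.505 by limma with Benjamini-Hochberg adjustment, and Cd163 was the 1 member of 9 with an unadjusted p under 0.05 in that fit, beside 9.52% of all genes. With the block, 122 genes (1.14%) passed over all genes in place of 0, and 0 of the 9 were among them.

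Kit stood at 9.35, 14.9 and 6.74 FPKM against 8.34, 14.0 and 5.94 FPKM, and Flt3 at 3.36, 2.86 and 0.463 FPKM against 2.88, 4.70 and 0.703 FPKM. Cpa3 stood at 14.6, 29.0 and 1.51 FPKM against 4.002, 28.6 and 1.05 FPKM. Cpa3 and Kit were higher in FDG-decreased ileum in 3 of 3 pairs, as were 17.2% of all genes. The pairs were unequal for Cpa3, at 1.64, 0.02 and 0.29 on the log2 scale, and nearly equal for Kit, at 0.15, 0.09 and 0.16. Fcer1a stood at 3.31 and 5.24 FPKM in FDG-decreased and at 0.944 and 8.10 FPKM in FDG-increased replicates 1 and 2, and was listed at 0 in both libraries numbered 3. With the block the Cpa3 difference of 0.65 had an SE of 0.305 and a 95% interval of -0.07 to 1.38, and an adjusted p of 0.603 by limma with Benjamini-Hochberg adjustment.

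Other members of the 3 cell lists gave no call in this table by limma with Benjamini-Hochberg adjustment. Of 19 macrophage and monocyte genes 12 were lower in FDG-decreased ileum, of 9 dendritic genes 6 were higher and of 9 mast cell, basophil and eosinophil genes 6 were higher, with medians of -0.14, 0.06 and 0.19, and none had an unadjusted p under 0.05. Those farthest from 0 were Batf3 (0.55), the fractalkine receptor Cx3cr1 (-0.43), the endotoxin co-receptor Cd14 (-0.42) and Xcr1 (0.39). Cd14 stood at 15.1, 13.6 and 14.1 FPKM against 17.6, 24.3 and 16.9 FPKM, without overlap, which 1.26% of all genes showed in that direction (1.95% in the other). It was also not low in the libraries numbered 3. The ligands differed by 0.31 (Csf1), 0.01 (Il34) and 0.07 (Kitlg). Ccl2 stood at 16.3, 22.5 and 4.26 FPKM against 30.9, 111.0 and 5.53 FPKM, lower in FDG-decreased ileum in 3 of 3 pairs. Its difference was -1.15 (SE 1.01), and with the block the SE was 0.389, with an adjusted p of 0.452 by limma with Benjamini-Hochberg adjustment.

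The libraries numbered 3 were low in more than these genes. Their summed level of pan-leukocyte genes was 22.2 and 26.5 FPKM, against 96.0 to 189.0 FPKM in the other 4 libraries of the table, and of T and NK cell genes 31.3 and 23.3 against 130.5 to 226.7 FPKM. Smooth muscle genes went the other way, with 1473 and 1910 FPKM against 761.9 to 1045 FPKM, and epithelial genes summed to 3771 and 3712 FPKM against 5036 to 7119 FPKM. The part of tissue makeup in the marker values was not tested. With both libraries numbered 3 left out, 0 of 9 genes passed by limma with Benjamini-Hochberg adjustment, and the differences were -0.65 for Csf1r, -0.44 for Cd68, -0.52 for Cd163, -0.49 for C1qa, -0.68 for C1qb and 0.83 for Cpa3. The pair in lane 7, replicates 1, gave -0.47 for Csf1r and 1.64 for Cpa3, with no test possible on 1 library a group. With both libraries numbered 1 or both numbered 2 left out instead, 6 of the 9 (Csf1r, Cd68, Cd163, Flt3, Kit and Cpa3) kept their direction, while Fcer1a was -0.27 without the first pair, and C1qa and C1qb were 0.33 and 0.14 without the second. Leaving out 1 library, which leaves its partner of the same number in the other group, turned the direction of each of the 9. Csf1r was 0.42 without FDG-decreased replicate 3, 0.13 without FDG-increased replicate 1 and 0.35 without FDG-increased replicate 2. Cpa3 was -0.10 without FDG-decreased replicate 2 and -0.20 without FDG-increased replicate 3.

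**Figure D4:**
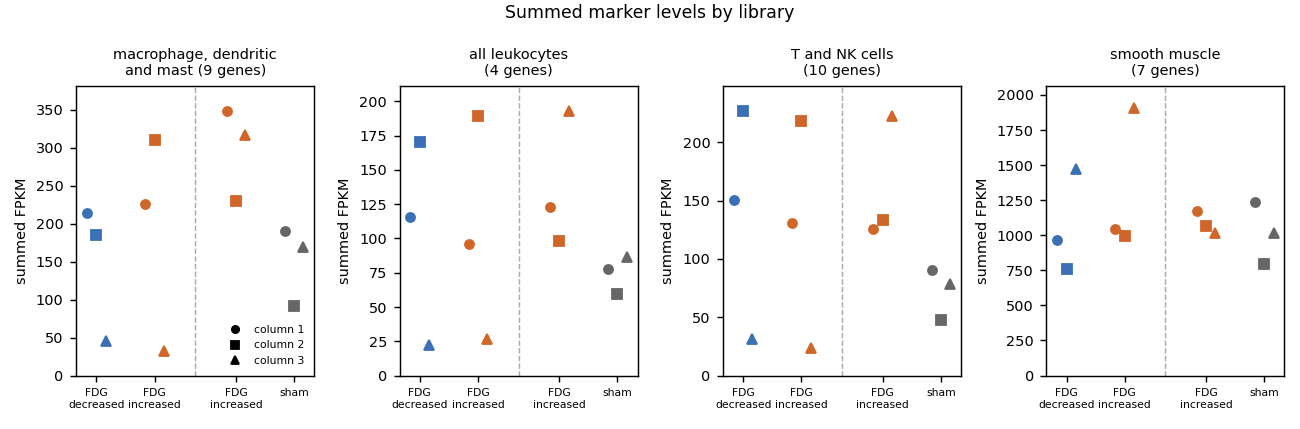
Summed FPKM (y axis) of marker lists in each library column by group (x axis), with the RYGB table left of the dashed line and the sham table right of it. The libraries numbered 3 of the RYGB table (triangles, left) had 22.2 and 26.5 FPKM of pan-leukocyte genes and the 2 highest smooth muscle sums, 1473 and 1910 FPKM.

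FDG-decreased and sham ileum are in different tables, so their values are set side by side with no test, after multiplying the RYGB-table values by 1.022, the mean factor of the shared libraries. Csf1r stood at 12.5 ± 8.14 FPKM in FDG-decreased and 11.0 ± 3.18 FPKM in sham ileum (SD, n = 3), and C1qa at 59.3 ± 39.9 and 64.8 ± 29.4 FPKM (SD, n = 3). FDG-decreased replicates 1 and 2 lay above all sham libraries and replicate 3 below all of them for Csf1r, Cd68, Cpa3 and Fcer1a. C1qa, Flt3 and Kit each had 1 library above all sham libraries and 1 below, and C1qb had 1 below and none above. Cd163 stood at 2.83, 5.75 and 1.28 FPKM, below the sham range of 6.43 to 9.66 FPKM in all 3 libraries, which held for 1.86% of all genes, and 0 of 9 lay above in all 3, beside 3.38%. Kit stood at 10.6 ± 4.25 and 9.83 ± 1.07 FPKM (SD, n = 3). The FDG-increased library that is in the RYGB table alone lay below every sham library for 9 of 9 genes, as it did for 34.5% of all genes (16.1% lay above), with 2.09 FPKM of Csf1r and 10.4 FPKM of C1qa on that scale. The FDG-increased values against sham thus hold for the columns of the sham table and not for that library.

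Across the columns of both tables, the profile of each gene was compared with all others by the root mean square difference of log2(FPKM + 1), after centring each gene within each table, over 10651 genes. Nearest to Csf1r were Rnf128 (0.202), a ubiquitin ligase, Acp5 (0.212), an acid phosphatase of macrophages and osteoclasts, and Tyrobp (0.229), against a median of 1.00 over all genes. C1qb was the 4th nearest, Cd68 the 7th and C1qa the 12th, while Cd163 ranked 1137 and Kit 2109. Nearest to Flt3 were Nckap1l (0.134), an actin regulator of blood cells, Gnb4 (0.150), a G protein subunit, and Skap1 (0.161), an adaptor of T cells, against a median of 0.626. Nearest to Cpa3 were Fcer1a (0.325), Mcpt2 (0.384) and Ms4a2 (0.432), another chain of the IgE receptor, against a median of 1.21, and Kit ranked 1046. The columns share libraries between the tables, and 12 columns stand for 10 libraries.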

How the data were processed

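Total RNA of rat ileum was sequenced by the submitters from stranded, ribosomal RNA-depleted libraries, per the labels' protocols. The authors deposited 2 tables of FPKM per gene and library, each scaled by itself. DESeq2 1.24.0, Cuffdiff, Cufflinks 2.2.1, STAR 2.6.0a and bcl2fastq 1.8.4 are named, without order, per the submitters' processing notes, beside the human build hg19, so no coordinates came from the files. FPKM carries no counts, so depth is unknown and no counting interval is given.

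Columns were mapped to samples by title, and sham-table columns named FDG increased to their group alone, because their numbers differ from those of the same libraries in the RYGB table. Unused sample columns numbered 0. After 25 symbols turned into dates were left out, 17120 genes remained. Genes averaging 1 FPKM or more across a table's 6 columns were tested as log2(FPKM + 1), which understates changes of low genes, with limma 3.58.1 in R 4.3.3 (trend, robust variances), Benjamini-Hochberg adjustment over all genes and a threshold of 0.05. The procedure was tested on simulated data in which every gene had the same spread. That does not show its power for the genes described here. RYGB-table libraries of the same number had correlated deviations from the group means (0.845, 0.763 and 0.768 across genes), so the pair values and the block take these numbers as pairs. The main fit has no block. The genes and lists were chosen with earlier results of these data known. Beyond the 9 genes, those named are C1qc, ligands, tissue checks, in each table the 4 genes of the macrophage, dendritic and mast cell lists with the largest differences, and for Csf1r, Flt3 and Cpa3 the 3 nearest profiles. Others were named after their values were seen. A gene of the macrophage list is not reported here by name. Alternatives were another pseudocount, no filter, other scalings, the block, plain empirical Bayes, lane 7 alone and leaving out each library.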

Additional observations from a re-analysis of the deposited data

How the results depend on the processing

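Against sham ileum, 111 of 117 values of the 9 genes over 13 alternatives kept their direction and stayed above the threshold, and 6 changed sign: Kit with quantile normalization (-0.00194), with libraries shifted to the same median (-0.042) and in lane 7 alone (-0.18), Cpa3 (-0.40) and Fcer1a (-0.078) in lane 7 alone, and Kit among the fits without 1 library (-0.12 to 0.22). Between the RYGB groups 110 of 135 values over 15 alternatives were kept and 25 changed sign: Fcer1a with both libraries numbered 1 left out (-0.27), C1qa and C1qb with both numbered 2 left out (0.33 and 0.14), and 22 without 1 library, whose pair partner stays in, with ranges of -1.16 to 0.61 for C1qa, -1.26 to 0.31 for C1qb, -0.90 to 0.081 for Cd163, -1.13 to 0.36 for Cd68, -0.20 to 1.72 for Cpa3, -1.36 to 0.42 for Csf1r, -0.49 to 1.10 for Fcer1a, -0.69 to 0.29 for Flt3 and -0.14 to 0.43 for Kit. The cause was not tested. By limma with Benjamini-Hochberg adjustment, 0 of the 9 genes passed under each alternative in either table. Over all genes the count against sham, 4, was 1 with a pseudocount of 0.1, 0 with no filter and 0 with quantile normalization (unadjusted p under 0.05 for 1055 and 812 genes), 1 with a common median, 39 with the replicate block (Ccl2 among them, adjusted p 0.00726) and 0 to 13 without 1 library (13 without FDG-increased column 3, 7 without sham replicate 3, 1 without sham replicate 1 and 0 without each of the others). In the sham table same-numbered columns did not deviate together (0.350, -0.498 and -0.246), so the block there joins only numbers. Between the RYGB groups the count was 122 with the replicate block and 0 to 1 without 1 library. Leaving out both libraries of a number was chosen after seeing the data. Lane 7 alone could not be fitted in the RYGB table, which has 1 library of each group there. FPKM without counts sets no detection limit, and 3 libraries a group limit the precision.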
